A study of Mus musculus with 8 samples.

Results

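The genes described here are 9 protein-coding mouse genes, Eps15, Cenpu, Smarce1, Ints10, Timm22, Armc8, Harbi1, Kansl3 and Zfp609, each with a strong Polr1c peak at one end of the gene. They are 9 of the 21887 protein-coding genes on the 21 main chromosomes and were chosen from the Polr1c fold enrichments at gene ends in both replicates, so those folds are a description and carry no test. Peak lists of a ChIP-seq study, an assay that reads out DNA pulled down with a fixed protein, were used, from primary neural progenitor cells cultured from the hippocampus of male C57BL/6 mice. No genotype, treatment or age is given in the sources used here. Mgea5, Panx2 and Polr1c were each profiled in 2 replicates, and 2 input libraries, not used here, complete the 8 samples. All groups share strain, sex, tissue and culture, and the labels do not say whether the replicates are separate cultures or animals, so differences between them may be technical. Peak lists give no expression, so the labelled cell type was not checked against its markers.

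Polr1c is a subunit that RNA polymerase I and RNA polymerase III have in common. RNA polymerase I transcribes the large ribosomal RNA precursor in the nucleolus, and RNA polymerase III transcribes tRNAs and other short RNAs. Messenger RNAs of protein-coding genes are made by RNA polymerase II, which has other subunits in place of Polr1c. Mgea5 is the enzyme that removes O-GlcNAc from nuclear and cytosolic proteins, and Panx2 is a pannexin, a channel-forming membrane protein. The proteins of the 9 genes act in different places, among them clathrin-coated pits, the centromere, chromatin, the Integrator complex, the mitochondrial inner membrane and a ubiquitin ligase.

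For Polr1c, 826 peaks were listed in replicate 1 and 35927 in replicate 2. There were 536877 and 521566 for Mgea5, and 145405 and 478662 for Panx2. The fold enrichment, −log10 p and −log10 q of each peak are the authors' deposited values, and they rank peaks within a list. The read depth is not given in the sources used here, and a fold in one list cannot be compared with a fold in another as a level of binding. The directory recorded in the peak names places Panx2 replicate 1 and Polr1c replicate 1 in one calling run and the other 4 lists in another, so replicate and calling run cannot be told apart for Panx2 and Polr1c.

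Each of the 9 genes had Polr1c peaks in both lists no more than 1000 bp from one end, which held for 0.521% of all protein-coding genes (114 genes). The share was 0.594% with replicate 1 alone and 17.5% with replicate 2 alone. This count was fixed by the choice of the genes. The 9 are not the first 9 of a ranking. By the geometric mean of both folds, 8 of them stood at rank 9 or above, with Harbi1 sharing rank 7 and its peaks with the neighbouring gene Atg13. Zfp609 stood at rank 33, level with its neighbour Trip4. In all, 34 genes at 28 sites stood at or above Zfp609, and 25 of them are not among the 9. Next above Zfp609 was Syt7, at rank 32, with folds of 7.60 and 10.8. Next below was Zfat, at rank 35, with folds of 7.40 and 10.0 and a geometric mean of 8.62 against 8.70 for Zfp609. Of the genes left out, 14 had folds above those of Zfp609 in both replicates, among them Setd1a (12.9 and 11.5) and Usp3 (13.2 and 11.1).

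Eps15 encodes a scaffold protein of clathrin-coated pits. Its Polr1c fold was 11.5 in replicate 1 and 30.1 in replicate 2. The second value was the highest of all 35927 peaks of that list, and its −log10 p of 146 was also the highest there. In replicate 1 the same site was at rank 17 by fold. The gene lies on chromosome 4 from 109280175 to 109387817 on the forward strand. The summits, the positions of highest pileup, fell 16 and 18 bp inside its low-coordinate end. No RefSeq promoter start of Eps15 itself was listed within 1000 bp of these peaks.

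Cenpu encodes a subunit of the inner kinetochore, the protein layer on centromeric chromatin. It had a fold of 22.8 in replicate 1, the highest of that list, and 12.4 in replicate 2, at rank 24. The gene spans 46552019 to 46580568 on chromosome 8, forward strand. Its summits lay 116 and 132 bp outside the annotated gene, on the start side.

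Smarce1 encodes a DNA-binding subunit of the SWI/SNF chromatin remodelling complexes. Its fold was 10.7 in replicate 1 and 21.6 in replicate 2, where it was at rank 3 by fold and by p. The gene spans 99209047 to 99231017 on chromosome 11. The summits lay 472 and 454 bp inside the high-coordinate end, farther from a gene end than in any of the other 8 genes. The tables used here give no strand for Smarce1, Ints10 or Zfp609, so for these 3 the end is named by coordinate.

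Ints10 encodes a subunit of Integrator, which cleaves nascent RNAs and forms the ends of small nuclear RNAs. Its folds were 15.2 and 14.3. The gene spans 68793929 to 68829410 on chromosome 8, and the summits lay 95 and 85 bp outside its low-coordinate end.

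Timm22 encodes the channel subunit of the translocase that inserts carrier proteins into the mitochondrial inner membrane. Its folds were 16.4 and 12.6, at rank 4 by fold in replicate 1 and 21 in replicate 2. At 9.39 kb it is the shortest gene of the 9 (chromosome 11, 76406925 to 76416313, forward strand). The summits lay 203 and 200 bp inside its first annotated start. RefSeq lists a second start, at 76407143, and the summits lay 15 and 18 bp before it.

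Armc8 encodes an armadillo repeat protein of the CTLH ubiquitin ligase complex. Its folds were 14.7 and 12.2. The gene spans 99478385 to 99568907 on chromosome 9, reverse strand. The summits lay 165 and 139 bp inside its high-coordinate end, and 157 and 131 bp downstream of the start in the promoter table.

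Harbi1 derives from a Harbinger DNA transposon and encodes a transposase-like protein. Its folds were 14.7 and 11.8. The gene spans 91710852 to 91723671 on chromosome 2, forward strand, and the summits lay 89 and 100 bp before its start. The start of Atg13, which encodes a component of the kinase complex that initiates autophagy, is at 91710592 on the reverse strand. The summits were 171 and 160 bp upstream of that start as well, so the peak lay between 2 divergent genes and cannot be assigned to either one.

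Kansl3 encodes a subunit of the NSL histone acetyltransferase complex. Its folds were 13.3 and 11.9. The gene spans 36335730 to 36369193 on chromosome 1, reverse strand, and the summits lay 39 and 27 bp outside its high-coordinate end. From the start in the promoter table they were 51 and 39 bp upstream.

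Zfp609 encodes a zinc finger protein reported to bind the cohesin loader Nipbl and Integrator in mouse neural progenitors. Its folds were the lowest of the 9 in both replicates, at 7.38 and 10.3. It is the longest gene of the 9, at 136 kb (chromosome 9, 65691578 to 65827564). The summits lay 236 and 232 bp outside its high-coordinate end, toward Trip4, a gene of a transcription coactivator complex. The Trip4 end was 1126 and 1130 bp from the summits and within 1000 bp of the site.

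**Figure D1:**
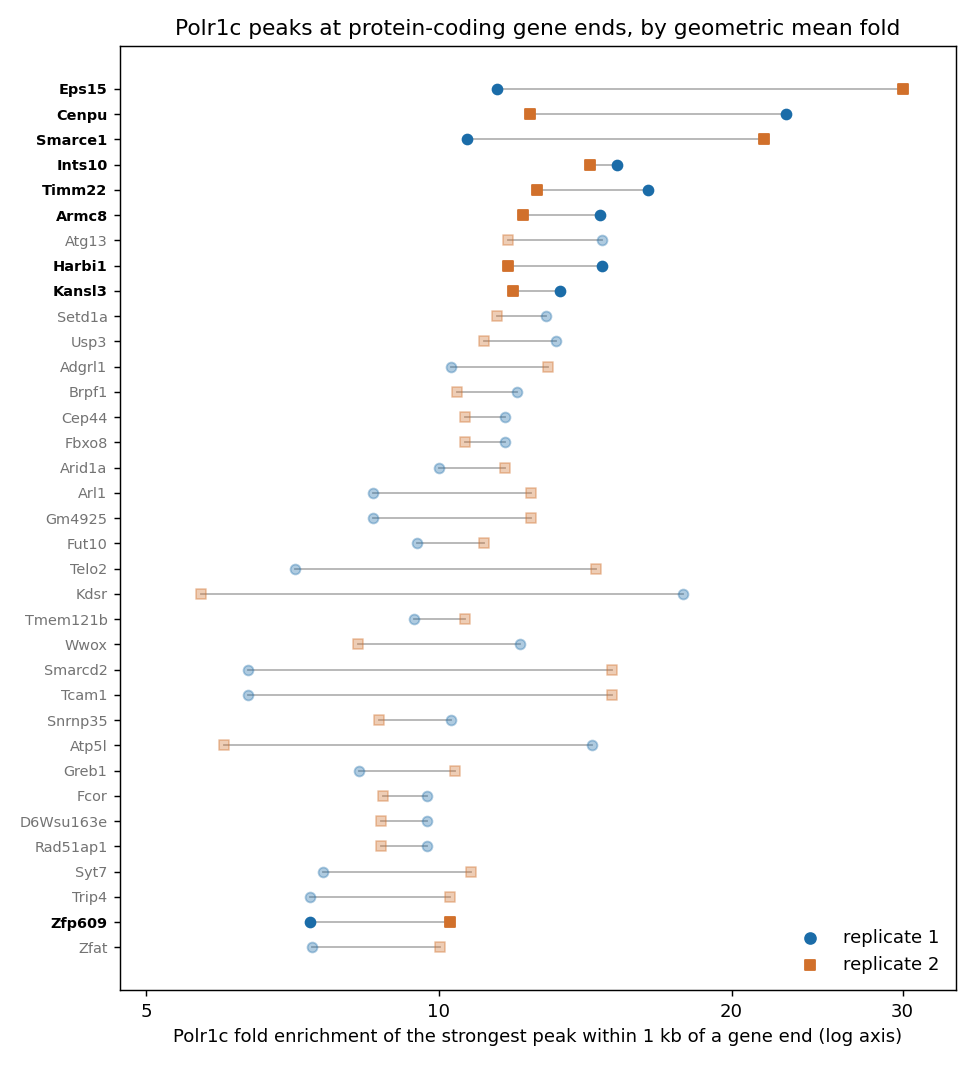
Polr1c fold enrichment (the authors' value, x axis on a log scale) of the strongest peak within 1000 bp of an end, in replicate 1 (circles) and replicate 2 (squares), for the 9 genes (bold) and the genes ranked among them down to Zfat (pale), ordered by geometric mean. Eps15 and Smarce1 sit at 30.1 and 21.6 in replicate 2 and at 11.5 and 10.7 in replicate 1, whereas Cenpu is at 22.8 in replicate 1 and 12.4 in replicate 2.

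The order of the genes differed between the replicates. Eps15 was at rank 17 by fold among the peaks of replicate 1 and at rank 1 in replicate 2, Smarce1 at 19 and 3, and Cenpu at 1 and 24. The ratio of the listed fold in replicate 2 to that in replicate 1 ran from 0.544 at Cenpu to 2.62 at Eps15. As the lists come from different calling runs, the ratio describes the lists and not a difference in binding. Leaving out replicate 1 put 3 of the 9 genes in the top 10, and leaving out replicate 2 put 6 there, against 8 with both. Zfp609 was at rank 35 and 45 in these settings.

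A ranking by the authors' p gave a different picture in replicate 1. There 50 peaks had a higher −log10 p than every one of the 9 genes, and their folds were 1.40 to 2.995. In replicate 2 no peak exceeded Eps15. The −log10 q of the 9 sites ran from 10.4 at Zfp609 to 56.0 at Cenpu in replicate 1 and from 50.6 at Zfp609 to 137 at Eps15 in replicate 2, so all 9 passed a −log10 q of 5 in both. Of all protein-coding genes, 0.247% did so, and 0.334% passed a −log10 q of 2.

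**Figure D2:**
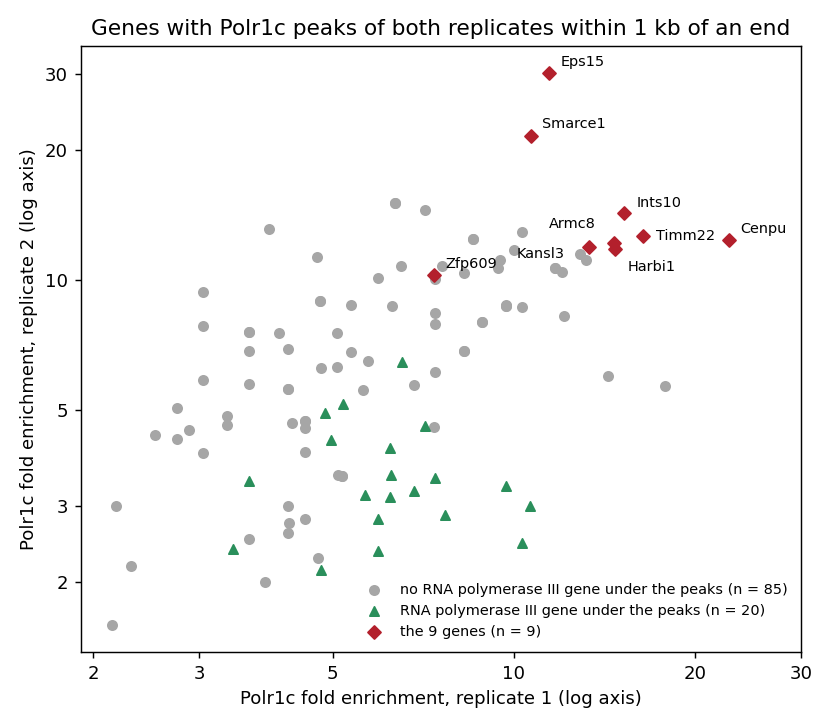
Polr1c fold in replicate 1 (x axis) against replicate 2 (y axis), both on log scales, for the 9 genes and for the other genes with peaks of both replicates at an end. The 9 genes lie toward the upper right, as they were chosen to, and Zfp609 (7.38 and 10.3) lies among genes that were not chosen.

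The position of the peak within each gene was measured apart from its height. The summits of the 2 replicates were 2 bp apart at Eps15, 3 bp at Timm22, 4 bp at Zfp609, 10 bp at Ints10, 11 bp at Harbi1, 12 bp at Kansl3, 16 bp at Cenpu, 18 bp at Smarce1 and 26 bp at Armc8. The median was 11 bp. At the 87 other sites where the strongest peaks of both replicates overlapped at a gene end, the median was 34 bp and the highest 849 bp, and 50 of these sites exceeded 26 bp. Height and summit position come from the same peaks, so these gaps are given as a description.

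Both summits fell on the same side of the gene end in all 9 genes. They were inside the gene at 4 (Eps15, Smarce1, Timm22 and Armc8) and outside it at 5 (Cenpu, Ints10, Harbi1, Kansl3 and Zfp609). The distance from the nearer end had a median of 116 bp in replicate 1 and 132 bp in replicate 2, against 221 and 205 bp at the 87 other sites. At the 69 of these with no RNA polymerase III gene under the peaks, the medians were 194 and 159 bp. Where a strand was available, for 6 of the 9 genes, the peak lay at the start of the gene and not at its far end. At Eps15 that start is the outer gene coordinate, with no RefSeq promoter start of its own within 1000 bp of the peaks. None of the 9 genes had a Polr1c peak of either replicate within 1000 bp of the far end. Over all protein-coding genes, 9.43% had a peak of either replicate at the low-coordinate end and 9.35% at the high-coordinate end, so a count of 0 of 9 is near the background.

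**Figure D3:**
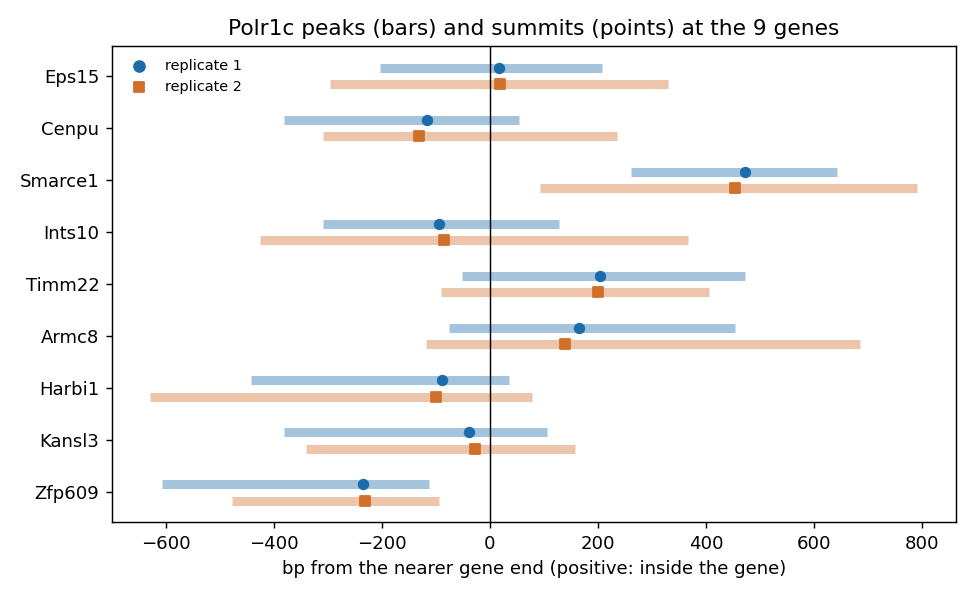
Distance in bp of the Polr1c summit of each replicate from the nearer end of each of the 9 genes, with positive values inside the gene. The summits of a gene lie within 26 bp of each other, and the distances run from 236 bp outside (Zfp609) to 472 bp inside (Smarce1).

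The peaks were 381 to 530 bp wide in replicate 1 (median 478 bp) and 384 to 806 bp wide in replicate 2 (median 628 bp), against medians of 391 and 466 bp at the 87 other sites. At the 69 of these with no RNA polymerase III gene under the peaks, the medians were 391 and 512 bp. Height and width come from the same peaks, so the widths are also a description. The stretch covered by both replicates, called the site here, was 365 to 530 bp wide.

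RefSeq promoter windows, which run from 250 bases before to 50 bases after a start on build GRCm38.p6 (the coordinates of mm10), held both summits at 4 of the 9 genes. Their sequences are shown because they contain the point of highest Polr1c pileup. Each is written 5′ to 3′ on the strand of its gene, and capitals mark the stretch between the summits of both replicates with 10 bases on either side. The windows are chr8:46551819-46552118 (forward strand) for Cenpu, chr11:76406893-76407192 (forward strand) for the second start of Timm22, chr2:91710602-91710901 (forward strand) for Harbi1 and chr1:36369132-36369431 (reverse strand) for Kansl3.
Cenpu: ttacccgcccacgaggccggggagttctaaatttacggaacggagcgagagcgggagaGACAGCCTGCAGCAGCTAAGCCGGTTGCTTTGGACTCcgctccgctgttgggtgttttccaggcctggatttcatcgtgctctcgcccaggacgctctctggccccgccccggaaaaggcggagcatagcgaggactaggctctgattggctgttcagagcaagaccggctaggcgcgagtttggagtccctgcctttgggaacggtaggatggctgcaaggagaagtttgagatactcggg
Timm22: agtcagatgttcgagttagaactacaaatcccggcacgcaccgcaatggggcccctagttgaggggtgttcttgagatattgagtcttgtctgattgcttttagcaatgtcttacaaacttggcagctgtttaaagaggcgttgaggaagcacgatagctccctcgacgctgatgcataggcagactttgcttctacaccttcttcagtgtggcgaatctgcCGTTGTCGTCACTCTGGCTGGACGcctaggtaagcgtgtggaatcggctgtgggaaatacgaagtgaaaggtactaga
Harbi1: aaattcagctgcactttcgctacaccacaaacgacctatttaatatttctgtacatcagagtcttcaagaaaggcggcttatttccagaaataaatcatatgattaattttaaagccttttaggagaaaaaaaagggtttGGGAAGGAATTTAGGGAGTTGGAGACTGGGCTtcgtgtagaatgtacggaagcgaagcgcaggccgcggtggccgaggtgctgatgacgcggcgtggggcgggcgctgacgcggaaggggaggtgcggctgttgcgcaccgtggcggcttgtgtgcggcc
Kansl3: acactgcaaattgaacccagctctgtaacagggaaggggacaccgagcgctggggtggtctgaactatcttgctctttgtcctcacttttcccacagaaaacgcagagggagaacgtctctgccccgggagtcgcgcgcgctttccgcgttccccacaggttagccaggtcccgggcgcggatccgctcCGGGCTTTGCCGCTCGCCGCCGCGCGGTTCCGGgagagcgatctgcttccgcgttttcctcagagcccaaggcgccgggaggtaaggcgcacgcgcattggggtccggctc

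In these windows the summits lay at positions 85 and 69 of 300 for Cenpu, 236 and 233 for Timm22, 162 and 151 for Harbi1 and 200 and 212 for Kansl3, counted from the 5′ end. The capitals run over 37, 24, 32 and 33 bases. The summit of Timm22 lies nearest to its start, and that of Cenpu farthest upstream.

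With the windows of Armc8, of the first Timm22 start, of Atg13 and of the lncRNA Gm40225 at Eps15, 8 windows at 6 genes touched a site. Their GC content ran from 49.0% (Atg13) to 75.3% (Gm40225), with 64.3% at Kansl3, 60.0% at Cenpu, 54.3% at Armc8, 52.3% and 49.7% at Timm22 and 51.3% at Harbi1. Their median was 53.3%, against 52.7% over all 32851 windows of the table, 56.3% over those of protein-coding genes and 62.7% over the 23 windows at other Polr1c sites. The number of CpG dinucleotides ran from 14 to 37, with a median of 20. The median was 7 over all windows, 13 over those of protein-coding genes and 25 over those at other Polr1c sites. The 23 windows at other sites are of protein-coding genes and hold the middle of the site. The 8 windows need only touch a site, and they include a lncRNA window and overlapping windows, so the sets are unlike.

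Short motifs were searched on both strands of these 8 windows. The GC box GGGCGG, bound by Sp factors, was in 4 windows (Gm40225, Cenpu, Armc8 and Harbi1). It was in 35.7% of all promoters, 46.2% of those of protein-coding genes and 65.2% of the 23 windows at other Polr1c sites. The NF-Y box CCAAT was in the windows of Cenpu and Kansl3, against 37.4% of all promoters. The NRF1 core GCATGCG was in that of Armc8, as 2 matches that overlap on opposite strands (3.58% of all promoters). ACTACAA, part of the ZNF143 motif, was in both overlapping windows of Timm22 (3.24%), where it is the same match. In the windows at other Polr1c sites the NF-Y, NRF1 and ZNF143 shares were 30.4%, 8.70% and 0%. No window held the core letters GGTTCGA of the tRNA B box, which 0.910% of all promoters hold. Also absent were the TATA box TATAAA, found in 13.6% of all promoters, the ETS motif CCGGAAG, found in 8.86%, and the YY1 motif AAGATGG, found in 6.34%. The same held for the palindrome TCGCGA, found in 2.50% of all promoters, the E-box CACGTG, found in 7.15%, and the cyclic AMP response element TGACGTC, found in 3.21%. A match or its absence in these windows describes letters, not a bound factor.

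Genes transcribed by RNA polymerase III were looked for next to the 9 genes, since Polr1c belongs to that enzyme. Of 469 such genes in the RefSeq table (408 tRNA genes among them), none lay within 5 kb of any of the 9 genes, against 0.516% of all protein-coding genes, and none within 50 kb, against 2.02%. With backgrounds this low, 0 of 9 is close to what the whole gene set shows. The nearest was always a tRNA gene. It was n-TQctg9 at 953 kb from Zfp609, n-TCgca54 at 1220 kb from Smarce1, n-TEttc1 at 1901 kb from Kansl3 and n-TKctt5 at 2270 kb from Timm22. The distances were 4831 kb for Armc8 (n-TCgca47) and 8339 kb for Cenpu (n-TLcag2). They were 22380 kb for Harbi1 (n-TDgtc2), 22737 kb for Eps15 (n-TAcgc3) and 25874 kb for Ints10 (n-TLcag5).

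Among the 105 other genes with Polr1c peaks of both replicates at an end, 20 (19%) had an RNA polymerase III gene under the peaks. None of those stood at or above Zfp609 in the ranking, and the first, Psma3, stood at rank 51. For scale, the peaks that touched a tRNA gene anywhere had a median fold of 5.40 and a highest fold of 10.6 in replicate 1 (101 peaks), and a median of 3.46 and a highest of 6.53 in replicate 2 (139 peaks). The 10 highest peaks by fold included 5 of the 9 sites and no tRNA gene in replicate 1, and 2 of the 9 sites and no tRNA gene in replicate 2. In replicate 1 Zfp609 and in replicate 2 none of the 9 lay below the highest tRNA peak. The 9 genes were chosen for high Polr1c folds, so their standing against the tRNA peaks follows from that choice. It does not compare Polr1c binding at the 2 kinds of gene.

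Other kinds of gene at the sites were few. At Eps15 the lncRNA gene Gm40225 (109224090 to 109280323, reverse strand) overlaps the start of Eps15, and the summits lay 132 and 130 bp inside it from its own start, so both genes share the site. No snRNA or snoRNA gene lay within 5 kb of any of the 9 genes, and 1 of them, Kansl3, had a microRNA gene there, Mir6898. An end of a second protein-coding gene lay within 1000 bp of the site at 2 of the 9 genes (Harbi1 with Atg13, Zfp609 with Trip4), against 12.6% of the 87 other sites. Within 500 bp the count was 1, Harbi1.

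The other Polr1c peaks in the 9 genes and 5 kb on either side were also counted. Replicate 1 had 9 peaks there, all of them the sites. Replicate 2 had 21, of which 12 lay outside the sites, with folds of 2.14 to 3.67 and a highest −log10 q of 1.29. Pooled over the 9 windows they came to 0.212 per 10 kb, close to the 0.193 per 10 kb of all replicate 2 peaks over all protein-coding genes. The second value counts peaks at gene ends too, so the measures are unlike. The 12 peaks were in Armc8 and Kansl3 (3 each), Eps15 and Zfp609 (2 each), and Cenpu and Ints10 (1 each). The highest, at 3.67, lay 2481 bp inside Armc8. Smarce1, Timm22 and Harbi1 had the site and no other peak.

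**Figure D4:**
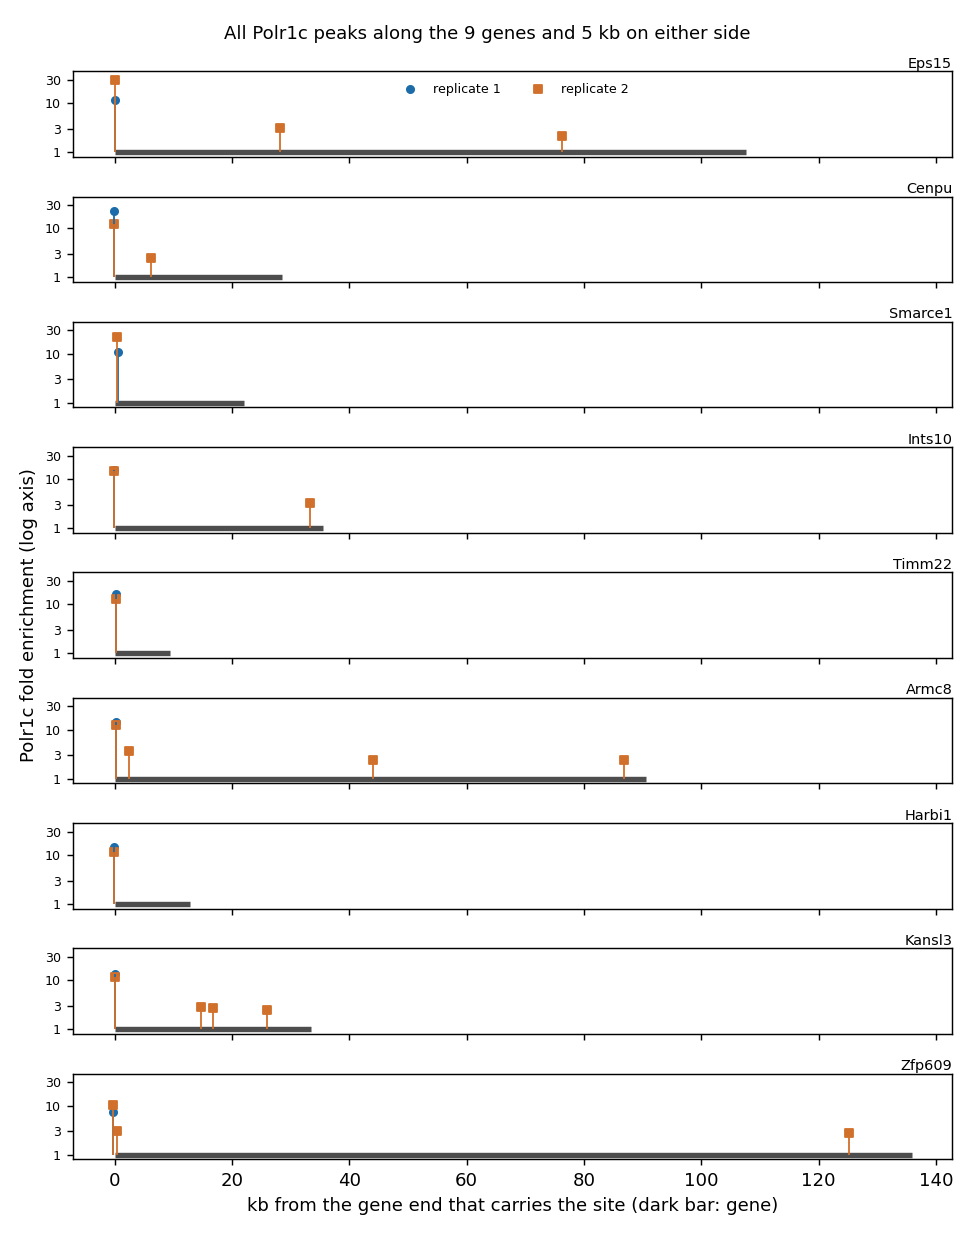
All Polr1c peaks of both replicates in each of the 9 genes and 5 kb on either side, by distance in kb from the gene end that carries the site (x axis) and fold (y axis, log scale). Each gene has 1 high peak per replicate near distance 0, and the other 12 peaks, all of replicate 2, have folds of at most 3.67.

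The genes were named for their Polr1c sites, but they were chosen with earlier results of these data known. The Mgea5 and Panx2 counts are therefore a description. A Mgea5 peak of both replicates overlapped the site by at least 1 bp at 6 of the 9 genes, against 33.3% of the 87 other sites. Peaks of replicate 1 alone covered 7 of 9 (59.8% of other sites) and those of replicate 2 alone 7 of 9 (48.3%). Of the other sites, 69 had no RNA polymerase III gene under the peaks, as none of the 9 had, and the shares there were 31.9% for both replicates, 62.3% for replicate 1 and 44.9% for replicate 2. The folds over the sites were 1.45 to 1.92, close to the median of all Mgea5 peaks (1.71 in both lists), and the highest −log10 q was 0.183. At a −log10 q of at least 2 none of the 9 sites had a Mgea5 peak, and such peaks number 114 and 117 in the whole lists.

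By gene, the Mgea5 folds were 1.92 and 1.92 at Armc8, the highest of the 9, where they exceeded 87.0% and 89.0% of the peaks of their lists. They were 1.84 and 1.79 at Smarce1, 1.75 and 1.82 at Eps15, 1.72 and 1.76 at Kansl3 and 1.86 and 1.59 at Harbi1. At Timm22 they were 1.45 and 1.82, the first of which exceeded only 0.0456% of the replicate 1 list. Cenpu had a Mgea5 peak of 1.70 in replicate 1 and none within 433 bp of the site in replicate 2. Ints10 had one of 1.56 in replicate 2, and its nearest in replicate 1 was 779 bp away. Zfp609 had none in either replicate, with the nearest at 307 and 2505 bp. The peak over the site was the highest Mgea5 peak of the gene and its 5 kb flanks in 2 of 14 cases, Harbi1 in replicate 1 and Timm22 in replicate 2.

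Counted at the gene ends and not at the site, Mgea5 was listed in both replicates for all 9 genes, no more than 1000 bp away, against 64.3% of all protein-coding genes and 86.7% of the 105 other genes with Polr1c peaks of both replicates. Such a count at 9 genes is near that of the other Polr1c genes. Either end counted in each replicate. At Zfp609 the nearest replicate 2 peak was 2505 bp from the site, so the replicate 2 peak counted was at the far end.

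Panx2 replicate 1 had no peak over any of the 9 sites (12.6% of other sites), and its list had no peak at all in Smarce1 and Harbi1 with their flanks. In replicate 2, 4 of the 9 sites had a Panx2 peak, against 58.6% of the other sites. Among the 69 sites without an RNA polymerase III gene the shares were 7.25% for replicate 1, 63.8% for replicate 2 and 5.8% for both. The folds were 2.68 at Smarce1, 2.57 at Kansl3, 2.23 at Armc8 and 2.02 at Eps15, higher than 98.5%, 97.9%, 91.4% and 78.3% of the peaks of that list. Their −log10 q was at most 0.952. At Cenpu and Ints10 the nearest replicate 2 peak ended 12 and 13 bp from the site, and at Harbi1, Zfp609 and Timm22 the distance was 109, 164 and 511 bp. No site had Panx2 peaks of both replicates (6.9% of other sites), and at the gene ends 1 gene, Timm22, had them (20.1% of all protein-coding genes and 29.5% of the 105 others). Either end counted in each replicate. The nearest replicate 1 peak was 3104 bp from the Timm22 site, so the replicate 1 peak counted was at the far end. The Panx2 peak over the site was the highest replicate 2 peak of the gene and its flanks at Smarce1 and Kansl3, 2 of the 4. The 4 genes also had Mgea5 peaks of both replicates over the site, as did 37.3% of the 51 other sites with a Panx2 peak in replicate 2.

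**Figure D5:**
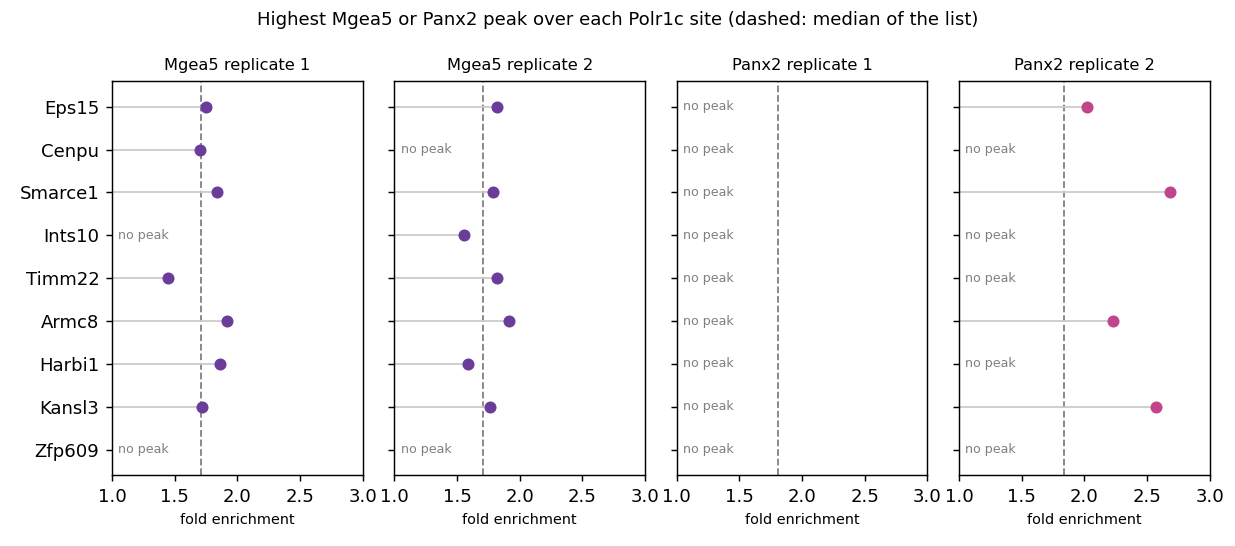
Fold enrichment of the highest Mgea5 or Panx2 peak over each of the 9 Polr1c sites, in each replicate (x axes from 1 to 3), with the median of each list as a dashed line. Mgea5 folds lie between 1.45 and 1.92, Panx2 replicate 1 has no peak over any site, and Panx2 replicate 2 reaches 2.68 at Smarce1.

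Genes whose products work with those of the 9 genes were listed by complex or partner, 108 genes in 9 lists. Polr1c peaks of both replicates lay at an end of 5 of the 108 (4.63%), against 0.521% of all protein-coding genes. The same 108 genes were also above that gene set for Mgea5 (80.6% against 64.3%) and Panx2 (25.9% against 20.1%). Of the 5, 4 were among the 24 SWI/SNF genes listed with Smarce1. Arid1a, the DNA-binding subunit of the BAF form, had folds of 10.0 and 11.7 and stood at rank 16, though its summits were 819 bp apart. Smarcd2, a core subunit, had folds of 6.36 and 15.1 at an end it shares with Tcam1. Bcl7c, an accessory subunit, had folds of 7.40 and 6.12, and Smarcc2, a scaffold subunit, 4.98 and 4.25. The tRNA gene n-TScga2 lay under the Smarcc2 peaks, and no RNA polymerase III gene lay under those of the other 4. The fifth was Timm9, a carrier chaperone of the intermembrane space that works with Timm22, with folds of 4.77 and 8.94, at an end shared with 2700049A03Rik.

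None of the 70 genes of the other 7 lists had Polr1c peaks of both replicates, near the 0.521% of all protein-coding genes. These were the clathrin endocytosis genes of Eps15 (20), the inner kinetochore genes of Cenpu (15), the Integrator genes of Ints10 (13), the CTLH genes of Armc8 (10), the NSL genes of Kansl3 (8), the partners of Zfp609 (3) and Naif1, which binds Harbi1. At the longer replicate 2 list alone, 31 of the 108 (28.7%) had a peak, against 17.5% of all protein-coding genes, 11 of them in the SWI/SNF list. The lists were drawn up with the Polr1c sites of the 9 genes known, and the counts are a description.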

How the data were processed

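Per the submitters' processing notes, reads were processed with Trim Galore, Bowtie2 2.3.5 and MACS3 3.0.0a5 on mm10. No source used here gives the control, cut-offs or read depth. The deposited lists give each peak a fold enrichment (a ratio), a −log10 p and a −log10 q from the authors' caller. The deposited Polr1c lists also give the summit. The deposited score column was not used.

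Genes came from the RefSeq table of GRCm38.p6, and strands from its promoter table. A Polr1c peak was assigned to a gene when it lay within 1000 bp of an end, and the highest by fold was kept per replicate. Overlaps needed 1 bp. Counts stand beside the same counts over all protein-coding genes or other Polr1c sites, with no test, since the Polr1c values chose the genes. The genes and lists were chosen with earlier results of these data known.

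The text names the 9 genes, annotated genes with an end at their sites, the genes ranked next to or above the lowest ranked of the 9, the nearest RNA polymerase III genes, and partner genes with peaks of both replicates. Psma3 was named after its values were seen. Scripts ran in Python 3.11.15 with pandas 2.3.3 and numpy 2.4.6 and were tested on simulated data.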

Additional observations from a re-analysis of the deposited data

How the results depend on the processing

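All 9 genes kept a Polr1c peak of both replicates at an end with windows of 500 and 5000 bp and at a −log10 q of at least 2 or 5. None had an RNA polymerase III gene within 5 kb, at the site or within 50 kb, or with pseudogenes and all snRNA genes counted, which was added after the data were seen. The Mgea5 count of 6 became 0 at a −log10 q of at least 2 and 0 at 5, where few Mgea5 peaks are left. It was 5 when both summits had to lie in the peak, 8 within 1000 bp and 7 without either one of the replicates. With the site covered by either Polr1c replicate, also added after the data were seen, the counts stayed 6 for Mgea5 and 0 for Panx2. The Panx2 count of 0 was 0 to 4 without one replicate. A second gene end was counted at 1 gene within 500 bp and 3 within 2500 bp, against 2. Partner genes numbered 5 to 31, and SWI/SNF genes 4 to 11, without one replicate, the higher value each time without replicate 1, whose list is short. The rank of Zfp609 ran from 33 to 47. These counts and ranks have no direction, so a reversal could not be looked for. No paired analysis was possible because the results are counts and authors' values that come from no test. With no read depth, an absent peak does not show absent binding.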

Other observations

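Some features of the sites were noticed after their values were seen and are given as values. Chromosome 8, which carries Cenpu and Ints10, held 7 of the 28 sites down to the rank of Zfp609. Of all 96 sites with overlapping peaks of both replicates at a gene end, it held 8, and chromosome 11 held 14. The cut at Zfp609 rests on the folds that chose the genes, so the 7 of 28 is a description. It holds 1043 of the 21887 protein-coding genes (4.77%). Its density of peaks relative to the median chromosome was 1.56 in Polr1c replicate 1 and 1.13 in replicate 2, and 0.945 to 1.02 in the Mgea5 and Panx2 lists. Chromosomes 9, 13 and 11 had higher densities in Polr1c replicate 1 (1.83, 1.70 and 1.65) and held 4, 0 and 3 of the 28 sites.

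The median length of the 9 genes was 33.5 kb, against 17.2 kb over all protein-coding genes. Timm22 and Harbi1 were shorter than that and the other 7 longer. Per 10 kb of gene and flanks they held a median of 3.22 and 3.48 Mgea5 peaks, against 2.77 and 2.52 over all protein-coding genes. For Panx2 the medians were 0.690 and 3.08, against 0.506 and 2.66. For Polr1c, the sites included, they were 0.230 and 0.438, against 0 and 0. The choice of the genes fixed that these Polr1c medians exceed 0. Outside the sites, replicate 2 peaks pooled to 0.212 per 10 kb, against 0.193 over all protein-coding genes. The second value counts peaks at gene ends too, so the measures are unlike.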
